A study of Mus musculus with 9 samples.

Results

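Gdpd3, Zfp945, Trappc10, Pank3, Dera and Apol10a are 6 genes whose array signal differed by several-fold or more between groups of mouse colon samples while replicate arrays of at least 1 of those groups lay close together. They were chosen from these same arrays for that pattern, as genes that looked switched on in some groups and off in others, so their levels and differences are given here as a description, without a test. Every probe whose RefSeq transcript belongs to 1 of the 6 genes was taken, which gave 8 probes among 27207 that passed the filter on low signal, and 6 genes among 17305 with a named probe on the array. Zfp945 has 3 probes and the other 5 genes have 1 probe each. In the RefSeq gene table the genes lie on chromosomes 7 (Gdpd3), 17 (Zfp945), 10 (Trappc10), 11 (Pank3), 6 (Dera) and 15 (Apol10a).

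Each array measured RNA from the colon lining of ICR mice, which the labels call normal, and each group had 3 arrays. In the hCA-Tumor group the mice ate a diet with 3% calcium and had tumors. In the hCA-Notumor group they ate the same 3% calcium diet and had none. The DMH group ate a normal diet with 1.24% calcium, and its tumor status is given as control. All 3 groups carried the same carcinogen exposure, 20 mg/kg dimethylhydrazine (DMH) under the skin each week for 20 weeks. The labels give neither age nor sex, do not say whether an array holds RNA of 1 mouse or of several, and record no genotype. Each standard error (SE) therefore measures only the spread between arrays, pooled over the 3 groups. ICR mice are an outbred stock, in which animals differ in their alleles.

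The 6 genes have unrelated roles. Gdpd3 belongs to the glycerophosphodiester phosphodiesterase family, whose members cut lysophospholipids and thereby release signalling lipids such as lysophosphatidic acid. Pank3 is a pantothenate kinase, which carries out the first step of coenzyme A synthesis, and Dera is the aldolase that splits deoxyribose phosphate during the breakdown of deoxynucleosides. Trappc10 is a subunit of TRAPP, a tethering complex of the Golgi that activates Rab GTPases. Zfp945 encodes a zinc finger protein. Apol10a belongs to the apolipoprotein L family, intracellular lipid-binding proteins whose genes form a cluster of close copies in the mouse.

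Oligonucleotide sequences of the probes were not used here. Start-site windows from RefSeq (GRCm38.p6, 250 bases before to 50 after the annotated start) were found for 5 of the 6 genes, Dera being the exception. The 3 windows shown belong to the genes with the widest ranges between replicate arrays, described below. They are the reference strain's letters, and capitals mark each CG dinucleotide, where promoter methylation can occur.
Gdpd3 promoter (chr7:126766164-126766463, plus strand): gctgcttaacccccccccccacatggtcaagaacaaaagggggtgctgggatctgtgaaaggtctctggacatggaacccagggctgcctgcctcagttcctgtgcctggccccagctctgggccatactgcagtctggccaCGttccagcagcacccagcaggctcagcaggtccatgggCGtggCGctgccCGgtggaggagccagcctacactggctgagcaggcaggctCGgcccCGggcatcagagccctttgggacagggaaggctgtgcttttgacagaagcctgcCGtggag
Zfp945 promoter (chr17:22867085-22867384, minus strand): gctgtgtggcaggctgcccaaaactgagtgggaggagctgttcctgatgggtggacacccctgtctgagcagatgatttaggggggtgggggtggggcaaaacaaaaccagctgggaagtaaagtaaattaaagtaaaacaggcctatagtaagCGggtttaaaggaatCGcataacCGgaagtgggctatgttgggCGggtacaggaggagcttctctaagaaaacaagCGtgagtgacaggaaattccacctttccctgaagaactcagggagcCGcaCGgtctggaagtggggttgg
Apol10a promoter (chr15:77476797-77477096, plus strand): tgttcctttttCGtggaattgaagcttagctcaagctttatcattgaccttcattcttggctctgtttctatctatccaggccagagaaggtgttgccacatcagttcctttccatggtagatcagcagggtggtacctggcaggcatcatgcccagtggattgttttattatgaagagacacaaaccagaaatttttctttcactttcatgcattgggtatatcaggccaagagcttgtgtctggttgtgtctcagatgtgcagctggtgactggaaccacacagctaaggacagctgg
The Gdpd3 and Zfp945 windows hold 7 CG each and the Apol10a window holds 1, against a median of 7 over 32851 windows, of which 94.6% hold at least as many as that of Apol10a. The Trappc10 and Pank3 windows hold 38 and 20. The letters TATAAA, searched on both strands, are in 0 of the 5 windows and in 13.6% of all windows. The letters CCAAT, also on both strands, are in the windows of Pank3 and Apol10a and in 37.4% of all windows.

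A signal is given below as its log2 minus the log2 of that array's 75th percentile, so that 0 is the level of a fairly bright probe and each unit is a doubling. A spot counts as detected where the scanner software flagged it as well above background. The label of on-off genes was not borne out in the strict sense. Detected on all 3 arrays of 1 group and on none of another was met by 0 of the 8 probes. Of all probes, 0.187% were detected in hCA-Tumor and not in DMH and 0.243% the reverse, 0.643% in hCA-Notumor and not in DMH and 0.195% the reverse, and 0.43% in hCA-Tumor and not in hCA-Notumor and 0.592% the reverse. Of 72 spots, 67 were well above background and 4 probes were so on all 9 arrays. The 5 remaining spots were 1 each of Zfp945, Trappc10 and Pank3 on hCA-Tumor arrays and 2 of Dera on hCA-Notumor arrays. Most of the low signals were dim but detected.

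**Figure D1:**
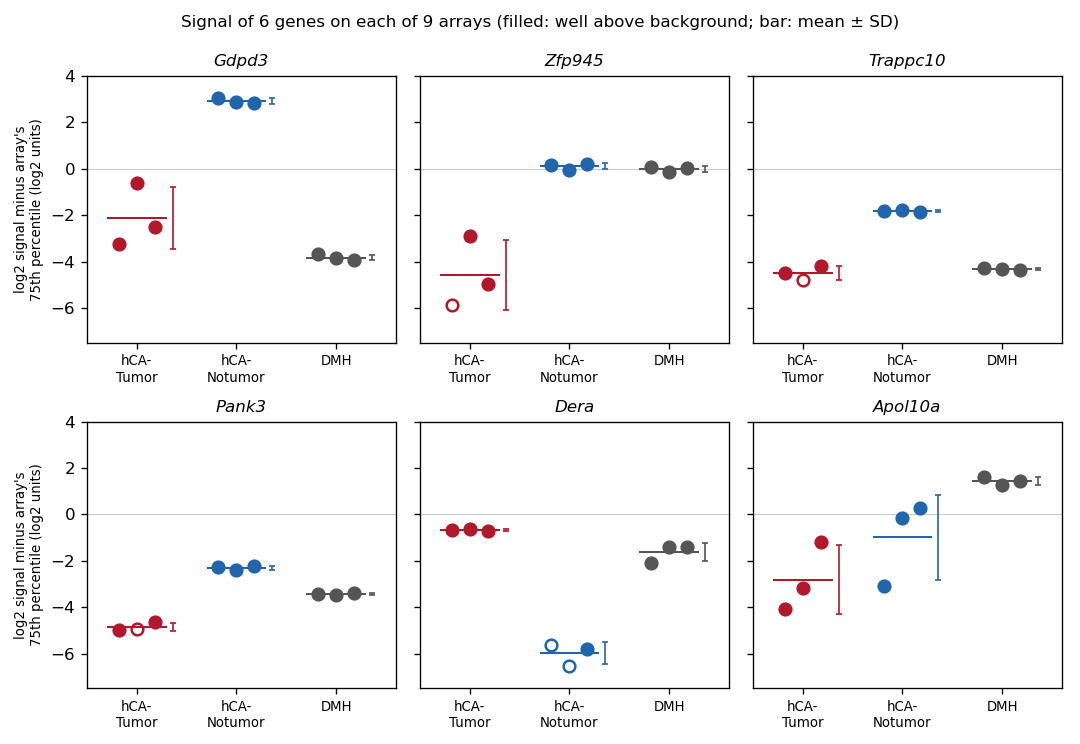
Signal of the 6 genes on each of the 9 arrays (log2 signal minus the array's 75th percentile), with 1 probe per gene (for Zfp945 probe A_52_P296074). Filled points are well above background, open points are not, lines are group means and bars at the side show the SD over 3 arrays; Gdpd3 is high on the hCA-Notumor arrays alone, and Dera is low on them.

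Gdpd3 was high in 1 group. Its signal was -3.24, -0.63 and -2.52 on the hCA-Tumor arrays, 3.05, 2.87 and 2.82 on the hCA-Notumor arrays, and -3.69, -3.84 and -3.94 on the DMH arrays. No group overlapped another, and all 9 spots were well above background. The hCA-Notumor mean exceeded the DMH mean by 6.73 ± 0.58 log2 units (SE, n = 3 arrays per group here and below), or 106-fold. Only 3 of the 27207 probes, Gdpd3 included, lay as far from 0. Each SE comes from 1 fit over all 9 arrays, so it pools the spread of the 3 groups, and it also draws on all kept probes. It is therefore not the spread of the 2 compared groups alone. For Gdpd3 the SD was 1.35 in hCA-Tumor, 0.12 in hCA-Notumor and 0.13 in DMH. Between hCA-Tumor and DMH the difference was 1.69 ± 0.58, and between hCA-Tumor and hCA-Notumor it was -5.04 ± 0.58. Taken against the hCA-Notumor mean as 100%, the hCA-Tumor arrays stood at 1.41%, 8.58% and 2.31% and the DMH arrays at 1.03%, 0.928% and 0.862%. Replicate 2 of hCA-Tumor was the highest of its group. Without it the hCA-Tumor minus DMH difference was 0.94, the lowest value with 1 array left out, and the range over all such fits reached 2.25.

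Pank3 was ordered hCA-Tumor, DMH, hCA-Notumor, from low to high. It gave -4.98, -4.94 and -4.63 on the hCA-Tumor arrays, of which 2 were well above background, -2.27, -2.40 and -2.22 on the hCA-Notumor arrays and -3.43, -3.46 and -3.37 on the DMH arrays. The groups did not overlap. The difference from DMH was -1.44 ± 0.10 for hCA-Tumor and 1.12 ± 0.10 for hCA-Notumor, so both high calcium groups differed from DMH in opposite directions, and their own difference was -2.56 ± 0.10.

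Dera showed the opposite order. It gave -0.66, -0.62 and -0.71 on the hCA-Tumor arrays, -5.64, -6.53 and -5.80 on the hCA-Notumor arrays and -2.09, -1.42 and -1.39 on the DMH arrays. The hCA-Tumor arrays lay within 0.10 of each other, above every DMH array, while on the hCA-Notumor arrays the signal was close to background and only replicate 3 was well above it. The measured hCA-Tumor minus hCA-Notumor difference was 5.33 ± 0.26, and its size is uncertain because 2 of the 3 hCA-Notumor spots were not well above background. With every hCA-Notumor spot taken as no lower than the lowest signal well above background on its array, hCA-Tumor was 26.3-fold higher. Against DMH, hCA-Tumor differed by 0.97 ± 0.26 and hCA-Notumor by -4.36 ± 0.26, and the hCA-Notumor value has the same uncertainty. Against the hCA-Tumor mean as 100%, the hCA-Notumor arrays stood at 3.16%, 1.71% and 2.85% and the DMH arrays at 37.3%, 59.0% and 60.6%. The scanner software's own error of the signal reached 68.5% on the dimmest of these spots, and had a median of 10.1% over the 9.

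Trappc10 was high in hCA-Notumor. The signal was -4.50, -4.80 and -4.19 on the hCA-Tumor arrays, with 2 of 3 well above background, -1.81, -1.78 and -1.85 on the hCA-Notumor arrays and -4.27, -4.32 and -4.38 on the DMH arrays. The hCA-Notumor arrays lay within 0.07 of each other and apart from both other groups, which overlapped. The differences were -0.17 ± 0.14 for hCA-Tumor minus DMH, 2.51 ± 0.14 for hCA-Notumor minus DMH and -2.68 ± 0.14 for hCA-Tumor minus hCA-Notumor.

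Zfp945 was low in hCA-Tumor at 1 of its 3 probes. At probe A_52_P296074 the signal was -5.87, -2.90 and -4.94 on the hCA-Tumor arrays, 0.15, -0.05 and 0.21 on the hCA-Notumor arrays and 0.09, -0.15 and 0.05 on the DMH arrays. The hCA-Tumor arrays lay below all others but spread over 2.97 log2 units, a range that 1.68% of all probes reached in that group. They stood at 1.58%, 12.4% and 3.01% of the hCA-Notumor mean, and replicate 2 was again the highest of the 3, as for Gdpd3. The difference was -4.57 ± 0.65 from DMH and -4.68 ± 0.65 from hCA-Notumor, while hCA-Notumor minus DMH was 0.11 ± 0.65. That pooled SE includes the hCA-Tumor spread, with an SD of 1.52 against 0.13 in hCA-Notumor and 0.13 in DMH.

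The other Zfp945 probes ran the opposite way, although all 3 are assigned to the same RefSeq transcript. Probe A_52_P440481 gave -1.62, -1.62 and -1.77 on the hCA-Tumor arrays, against -2.84, -2.51 and -2.90 on the hCA-Notumor arrays and -2.87, -2.62 and -2.74 on the DMH arrays. Probe A_52_P518422 gave -1.31, -1.33 and -1.40 on the hCA-Tumor arrays, against -2.11, -2.01 and -2.31 on the hCA-Notumor arrays and -1.92, -1.96 and -2.09 on the DMH arrays. At both, the hCA-Tumor arrays lay above all others, and the hCA-Notumor and DMH arrays overlapped. The hCA-Tumor minus DMH difference was 1.07 ± 0.12 at A_52_P440481 and 0.64 ± 0.09 at A_52_P518422. Over the 9 arrays, which share their groups, Pearson's r was -0.93 and -0.91 between A_52_P296074 and each of these probes and 0.96 between these 2. The gene's level in hCA-Tumor therefore has no single direction in these data. Of 4635 genes with several kept probes, Zfp945 had the widest gap between probes in hCA-Tumor minus DMH, 5.64 log2 units against a median of 0.29.

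**Figure D2:**
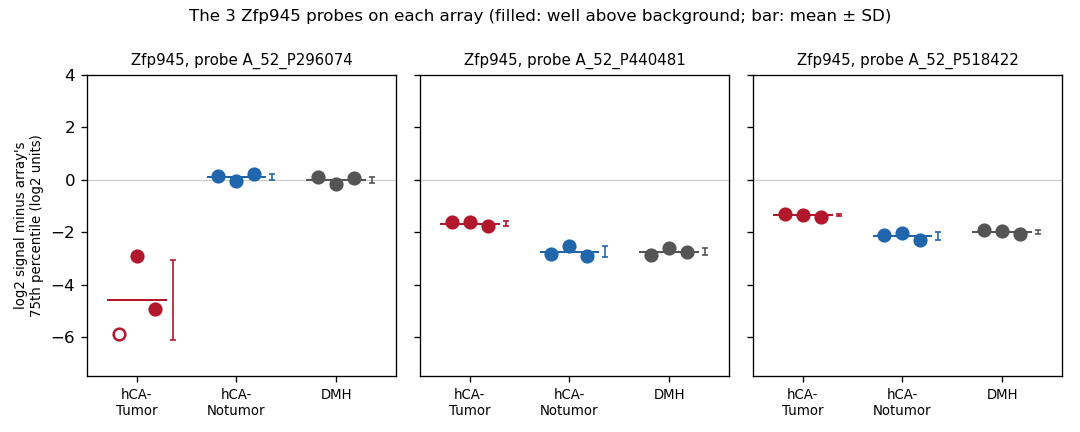
The 3 Zfp945 probes on each array (log2 signal minus the array's 75th percentile; filled points are well above background, lines are group means, side bars the SD over 3 arrays). The hCA-Tumor arrays are lowest at A_52_P296074, between -5.87 and -2.90, and highest at A_52_P440481 and A_52_P518422.

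Apol10a was the gene with the largest spread between replicates. It gave -4.09, -3.17 and -1.18 on the hCA-Tumor arrays, -3.10, -0.17 and 0.29 on the hCA-Notumor arrays and 1.63, 1.27 and 1.43 on the DMH arrays. Every DMH array lay above every high calcium array, and both high calcium groups overlapped. The 3 hCA-Notumor arrays spanned 3.39 log2 units, a range that 22 of the 27207 probes (0.0809%) reached, against a median range of 0.15 over all probes in that group. The difference from DMH was -4.25 ± 1.01 for hCA-Tumor and -2.43 ± 1.01 for hCA-Notumor, and hCA-Tumor minus hCA-Notumor was -1.82 ± 1.01. Against the DMH mean as 100%, the hCA-Tumor arrays stood at 2.16%, 4.06% and 16.2% and the hCA-Notumor arrays at 4.27%, 32.5% and 44.9%. The range with 1 array left out was -5.07 to -3.62 for hCA-Tumor and -3.08 to -1.38 for hCA-Notumor, where -1.38 was the value without hCA-Notumor replicate 1.

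Markers of fat cells also differed between the arrays. The summed level of 5 measured adipocyte markers of 6 listed, among them Cfd, Car3 and Adipoq, was 0.15, 0.13 and 1.98 on the hCA-Tumor arrays, -2.63, 0.17 and -0.25 on the hCA-Notumor arrays and 4.62, 4.46 and 4.63 on the DMH arrays. Lep was not well above background on all 3 arrays of any group. Within hCA-Tumor the array highest in Apol10a, replicate 3, was the highest in these markers. Within hCA-Notumor the array lowest in Apol10a, replicate 1, was the lowest. The remaining arrays did not follow this order. Apol10a was higher on hCA-Tumor replicate 2 than 1 and on hCA-Notumor replicate 3 than 2, while the marker sum was lower. On hCA-Notumor replicate 1 Cfd was -6.90, against -0.37 and -0.78 on replicates 2 and 3. Plin1 was -4.96 there, against -4.81 and -4.44, and Adipoq, Car3 and Retn were also lowest there. The part of the markers in the Apol10a difference was not tested. In whole tissue, fewer cells of a type and less RNA per cell cannot be told apart. Epithelial markers ranged over 10.12 to 10.33 in hCA-Tumor, 10.36 to 10.48 in hCA-Notumor and 10.13 to 10.36 in DMH. Smooth muscle markers ranged over 9.30 to 9.68, 8.77 to 9.09 and 7.87 to 8.66 in hCA-Tumor, hCA-Notumor and DMH. In the same order, immune markers ranged over 3.14 to 3.32, 3.31 to 3.47 and 3.84 to 3.86. Each such sum is the log2 of added signals, 1 probe per gene, so bright genes weigh most. S100a9 averaged -1.22, -2.16 and 1.40, and Ptprc, Mzb1, Adgre1 and Cpa3 were also highest in DMH. Cd3e and Cd79a were highest in hCA-Notumor. Markers of enteric neurons and glia ranged over 2.56 to 3.03, 1.98 to 2.50 and 1.72 to 1.87. The 2.56 is that of hCA-Tumor replicate 3, where Vip (1.39 and 1.41 on replicates 1 and 2) had no value and was left out. Endothelial markers ranged over 1.09 to 1.17, 0.70 to 0.96 and 1.13 to 1.22, and squamous epithelial markers over 1.33 to 1.58, 0.22 to 0.37 and 2.17 to 2.33. The part of these cell types in the differences of the 6 genes was not tested.

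**Figure D3:**
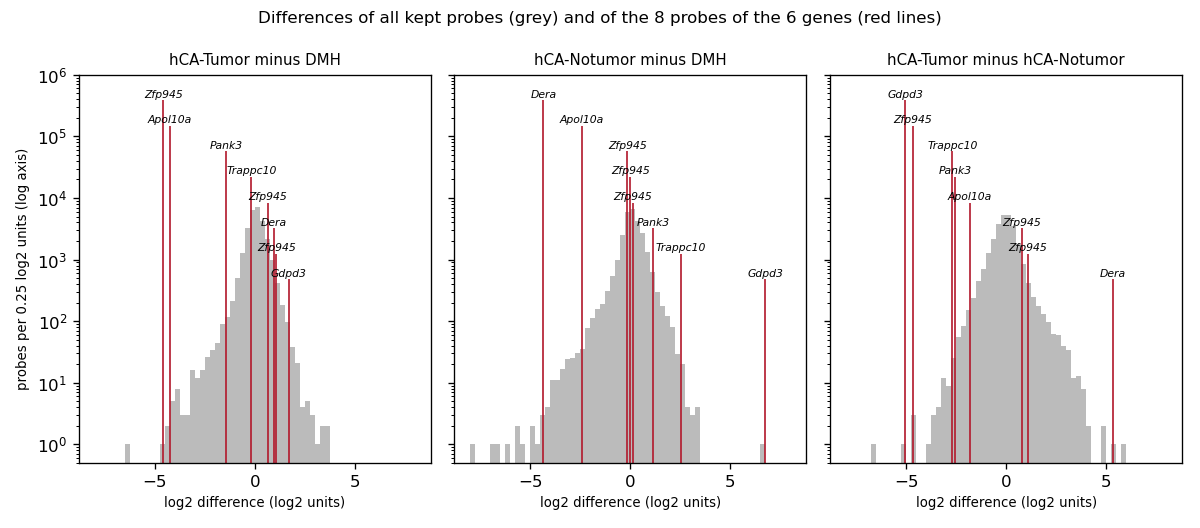
Distribution of the log2 differences of all 27207 kept probes in 3 contrasts (grey bars, log axis, probes per 0.25 log2 units), with a red line for each of the 8 probes; the height of a line only makes room for its name. Gdpd3 lies at 6.73 in hCA-Notumor minus DMH. Dera is drawn at its measured 5.33 in hCA-Tumor minus hCA-Notumor, where 1 of 3 hCA-Notumor spots was well above background.

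The number of the 8 probes that differed by at least 4-fold was 2 for hCA-Tumor minus DMH, 4 for hCA-Notumor minus DMH and 5 for hCA-Tumor minus hCA-Notumor. Of all probes 0.606%, 1.42% and 1.95% differed by that much, but the genes were chosen on these contrasts, so nothing is read from the excess. The groups did not overlap for 7, 5 and 7 of the 8 probes in the same contrasts, against 50.6%, 58.6% and 61.4% of all probes. All 6 high calcium arrays lay on 1 side of the 3 DMH arrays for 2 of the 8 probes, those of Gdpd3 and Apol10a, against 18.9% of all probes. Pank3 and Dera had hCA-Tumor on 1 side of DMH and hCA-Notumor on the other. Trappc10 and Zfp945 had 1 high calcium group that overlapped DMH and 1 that did not.

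Groups and slides were partly confounded. The 3 hCA-Notumor arrays shared slide 1 with DMH replicate 1, hCA-Tumor replicates 1 and 2 shared slide 2 with DMH replicates 2 and 3, and hCA-Tumor replicate 3 was on slide 3. Within slide 2, hCA-Tumor minus DMH was 1.96 for Gdpd3, -4.34 for Zfp945 probe A_52_P296074, -1.55 for Pank3, 0.77 for Dera and -4.98 for Apol10a. Within slide 1, hCA-Notumor minus DMH was 6.60 for Gdpd3, 2.46 for Trappc10, 1.13 for Pank3, -3.90 for Dera and -2.62 for Apol10a. These differences kept their direction within slides. Among the DMH arrays the slide 1 array differed from the mean of those on slide 2 by 0.68 log2 units or less at every one of the 8 probes, the value for Dera being -0.68. hCA-Tumor and hCA-Notumor arrays never shared a slide, so these groups could not be compared within one. With the slide as a block, which links them through DMH, hCA-Tumor minus hCA-Notumor was -4.64 for Gdpd3, -4.36 for Zfp945 probe A_52_P296074, -2.76 for Trappc10, -2.68 for Pank3, 4.67 for Dera and -2.36 for Apol10a.

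The sizes depended on the background correction. With normexp correction and an offset of 50 added to every signal, which by construction compresses differences of dim probes, hCA-Notumor minus DMH was 5.11 for Gdpd3, 1.15 for Trappc10, 0.56 for Pank3 and -1.45 for Dera. Under the same correction, hCA-Tumor minus DMH was -2.54 for Zfp945 probe A_52_P296074, -0.31 for Pank3 and -3.09 for Apol10a. Dera differed by 2.19 between hCA-Tumor and hCA-Notumor, against 5.33 before.

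Genes next to the 6 were not used in choosing them. The 3 nearest genes on each side in the RefSeq table number 36, of which 13 had kept probes, 23 in all. The test for these and all genes below was limma over all 27207 kept probes with Benjamini-Hochberg adjustment, and a probe changed where its adjusted p was below 0.05. In hCA-Tumor minus DMH 1 of the 23 probes rose and 10 fell, while 38.8% of all probes changed (20.0% rose and 18.8% fell). In hCA-Notumor minus DMH 5 rose and 6 fell, while 37.2% of all changed (21.0% rose and 16.2% fell). In hCA-Tumor minus hCA-Notumor 3 rose and 12 fell, while 50.8% of all changed (25.6% rose and 25.2% fell). The 23 probes share 13 genes, and no test of the count was made.

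The neighbours of Gdpd3 were measured by 8 probes of Coro1a, Mapk3, Ypel3, Tbx6 and Ppp4c. They ranged from -0.35 to 0.42 in hCA-Tumor minus DMH, where 3 changed. In hCA-Notumor minus DMH, where Gdpd3 differed by 6.73, they ranged from -0.18 to 0.20 and 1 changed. In hCA-Tumor minus hCA-Notumor they ranged from -0.25 to 0.22 and 6 changed. Snrp1c-ps1 had no probe that passed. Fbll1, the only measured neighbour of Pank3, gave 0.70 in hCA-Tumor minus DMH and did not pass the test. For Zfp945 0 of the 6 neighbours, most of them predicted genes or pseudogenes, had a kept probe.

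Beside Trappc10, 1 probe of Gatd3a (A_52_P498167) rose by 1.07 ± 0.08 in hCA-Notumor minus DMH (limma, adjusted p = 0.000117), the same direction as Trappc10. The signal was -1.003, -0.973 and -1.081 on the hCA-Tumor arrays, 0.12, 0.17 and 0.10 on the hCA-Notumor arrays and -0.75, -1.02 and -1.04 on the DMH arrays. The second Gatd3a probe (A_51_P118320) gave 0.14 ± 0.06 in the same contrast and did not pass the test, so the 2 probes of the gene differed. Every probe of Pwp2 and Agpat3 fell in hCA-Notumor minus DMH, from -0.40 to -0.23, opposite to Trappc10. Of the 6 probes beside Trappc10, 5 changed in this contrast, all but Gatd3a A_51_P118320, while 37.2% of all probes changed.

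Beside Dera, both probes of Mgst1, a microsomal glutathione transferase, fell in hCA-Tumor minus hCA-Notumor, by 1.01 ± 0.06 at A_51_P287810 and by 0.52 ± 0.05 at A_52_P549827, where Dera differed by 5.33. On the other side of Dera, Eps8, an actin regulator, fell by 0.81 ± 0.08 at probe A_51_P188114 and gave 0.39 ± 0.16 at A_51_P188111, which did not pass. The SE at A_51_P188111 includes the DMH spread, with an SD of 0.37 against 0.06 in hCA-Tumor and 0.05 in hCA-Notumor. Fitted on only the compared groups, that probe rose and passed (limma, adjusted p = 0.00263), so the Eps8 probes differed in direction. Strap fell at both probes.

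Beside Apol10a, Apol7c was lower on high calcium at both of its probes. At A_51_P239177 the signal was -4.06, -3.86 and -3.32 on the hCA-Tumor arrays, -3.81, -3.87 and -3.38 on the hCA-Notumor arrays and -1.65, -1.57 and -1.53 on the DMH arrays, with no overlap between either high calcium group and DMH. It fell by 2.17 ± 0.20 in hCA-Tumor (limma, adjusted p = 0.000321) and by 2.11 ± 0.20 in hCA-Notumor (adjusted p = 0.000273). At A_52_P407171 the spot was well above background on 0 of 3 hCA-Tumor arrays, 1 of 3 hCA-Notumor arrays and 3 of 3 DMH arrays, and hCA-Tumor was at least 3.20-fold lower than DMH. The bound sets the DMH mean against, per hCA-Tumor array, the higher of the probe's own signal and the lowest signal well above background. With normexp correction A_51_P239177 differed by -1.14 and -0.98 and still passed, and A_52_P407171 by -0.42 and -0.38 and did not.

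**Figure D4:**
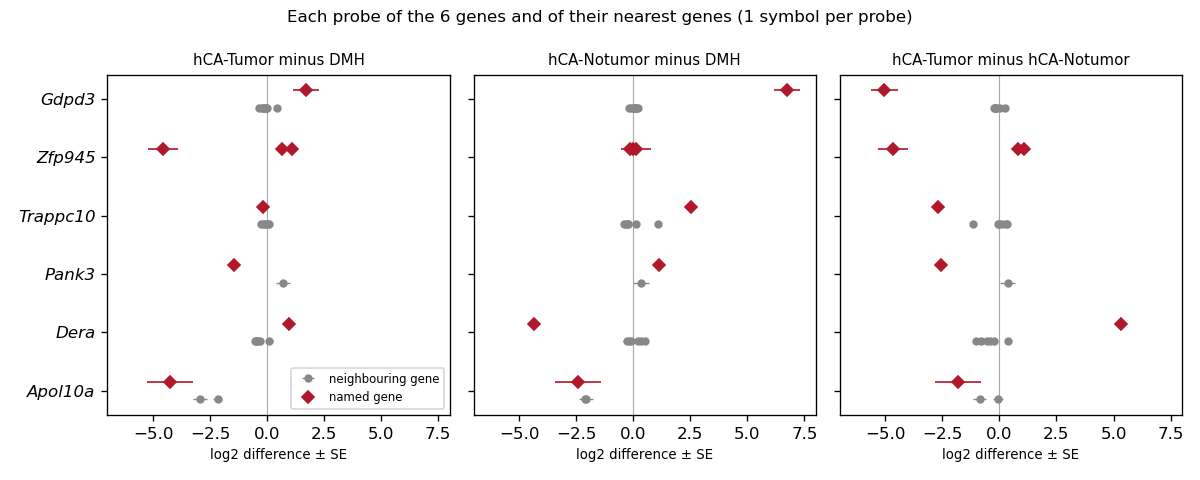
Log2 difference with its SE for each probe of the 6 genes (red diamonds) and for each kept probe of their nearest genes (grey circles), in 3 contrasts. The neighbours of Gdpd3 and Dera lie between -1.01 and 0.52, and beside Apol10a the Apol7c probe A_51_P239177 lies at -2.17 and -2.11 in the contrasts with DMH. The other Apol7c probe was not well above background on any hCA-Tumor array, and Zfp945 has no measured neighbour.

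Of 12 listed apolipoprotein L relatives 5 had kept probes, 7 in all. In hCA-Tumor minus DMH 0 rose and 4 fell, while 38.8% of all probes changed and 18.8% fell. In hCA-Notumor minus DMH 0 rose and 4 fell, while 37.2% of all changed and 16.2% fell. In hCA-Tumor minus hCA-Notumor 0 rose and 2 fell, while 50.8% of all changed. The probes that fell against DMH include both of Apol7c above, and the 7 probes belong to close copies. The median difference was -0.90 and -0.52, against 0.05 and 0.09 over all probes. Apol10b fell by 2.04 ± 0.34 in hCA-Tumor (limma, adjusted p = 0.00312) and by 1.96 ± 0.34 in hCA-Notumor (adjusted p = 0.00399), a call that ended within slide 1 at the same size. With normexp correction these were -0.97 and -0.91. The adipocyte, immune and squamous marker sums given above differ between the same groups, and their part was not tested. Apol7a at probe A_52_P360742 fell by 0.90 ± 0.29 in hCA-Tumor (adjusted p = 0.0428), while its second probe, A_51_P497724, gave -0.61 ± 0.24 and did not pass (adjusted p = 0.0843). Apol9b fell by 0.52 ± 0.16 in hCA-Notumor (adjusted p = 0.0374) and gave -0.09 ± 0.16 in hCA-Tumor, where it did not pass. The call at A_52_P360742 ended without any single array other than hCA-Tumor replicate 3, at adjusted p of 0.063 to 0.128, and the Apol9b call ended without hCA-Notumor replicate 1 or 2, hCA-Tumor replicate 1 or 2 or DMH replicate 1 or 2. Whether probes of such close copies hybridise with each other's RNA was not tested, so values of single Apol genes are uncertain.

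Relatives and pathways of the other 5 genes were counted in the same way, against the same 38.8%, 37.2% and 50.8% of all probes that changed in hCA-Tumor minus DMH, hCA-Notumor minus DMH and hCA-Tumor minus hCA-Notumor. Of 22 probes of glycerophosphodiesterases and of N-acylethanolamine and lysophosphatidic acid genes, 6 rose and 5 fell in hCA-Tumor minus DMH, 6 rose and 6 fell in hCA-Notumor minus DMH, and 5 rose and 5 fell in hCA-Tumor minus hCA-Notumor. Gdpd1, a close relative of Gdpd3, rose by 1.27 ± 0.08 in hCA-Notumor minus DMH at probe A_52_P236088, while its probe A_52_P75465 gave 0.16 ± 0.09 and did not pass. Gde1, another glycerophosphodiesterase, rose by 0.77 ± 0.06 in hCA-Tumor, and Gdpd5 fell by 0.60 ± 0.09 in hCA-Tumor and by 0.59 ± 0.09 in hCA-Notumor. Among 13 probes of coenzyme A synthesis and breakdown, 3 rose and 3 fell in each contrast with DMH, and 5 rose and 3 fell in hCA-Tumor minus hCA-Notumor. The pantetheinase Vnn1 fell by 1.78 ± 0.36 in hCA-Notumor (adjusted p = 0.00708), at 0.071 with the slide as a block, and Pank1 fell by 0.51 ± 0.08 in hCA-Tumor.

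Of 13 probes of deoxynucleoside breakdown, the pathway of Dera, 3 rose and 4 fell in hCA-Tumor minus DMH. In hCA-Notumor minus DMH 2 rose and 1 fell, and in hCA-Tumor minus hCA-Notumor 2 rose and 5 fell. Of all probes 38.8%, 37.2% and 50.8% changed in these contrasts, the shares that also apply to the TRAPP counts below. Both probes of Pnp, purine nucleoside phosphorylase, fell in hCA-Tumor minus hCA-Notumor, by 0.84 ± 0.08 and 0.66 ± 0.06, opposite to Dera. Upp1, uridine phosphorylase, rose by 1.499 ± 0.40 in hCA-Notumor minus DMH (adjusted p = 0.0223), a call lost without DMH replicate 2 (0.06) or 3 (0.069), with the slide as a block (0.13) and with quantile or normexp normalization (0.055 and 0.104). Of 26 probes of TRAPP subunits and their Rab GTPases, 1 rose and 8 fell in hCA-Tumor minus DMH, 4 rose and 2 fell in hCA-Notumor minus DMH, and 2 rose and 9 fell in hCA-Tumor minus hCA-Notumor. The largest change was that of Trappc8, which fell by 0.51 ± 0.06 in hCA-Tumor minus hCA-Notumor and gave -0.29 with normexp correction, where it did not pass. Trappc12 fell by 0.41 ± 0.06 and 0.47 ± 0.05 at 2 of its 3 probes in hCA-Tumor minus DMH, and the other gave -0.04 ± 0.05 and did not pass.

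Of 38 probes of KRAB zinc finger genes and their corepressors, listed as relatives of Zfp945, 6 rose and 4 fell in hCA-Tumor minus DMH, 3 rose and 3 fell in hCA-Notumor minus DMH, and 15 rose and 7 fell in hCA-Tumor minus hCA-Notumor, against 38.8%, 37.2% and 50.8% of all probes that changed. Zfp54 rose there by 2.13 ± 0.20 and fell by 2.04 ± 0.20 in hCA-Notumor minus DMH, with 1 of 3 hCA-Notumor arrays well above background. With normexp correction those were 0.39 and -0.10 and did not pass. Zfp97 fell by 1.12 ± 0.25 in hCA-Tumor minus DMH, and did not pass with normexp correction, where its difference was near 0. Zfp948 rose by 1.16 ± 0.21 in hCA-Tumor minus hCA-Notumor, and by 0.42 with the slide as a block. Zinc finger genes also share sequence, with the same uncertainty as for the Apol genes.

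Other genes known to carry null alleles or copy number differences among laboratory strains were set beside the 6, as measured levels. Glo1, a glyoxalase that is duplicated in some strains, rose in hCA-Tumor minus DMH by 1.05 ± 0.10 at A_51_P480982 (limma, adjusted p = 0.000404) and by 0.92 ± 0.09 at A_52_P670745 (adjusted p = 0.00034). Its signal at the first probe was 4.47, 4.47 and 4.27 on the hCA-Tumor arrays, 3.71, 3.86 and 3.94 on the hCA-Notumor arrays and 3.41, 3.48 and 3.17 on the DMH arrays, with no overlap between groups. Ide fell by 0.29 ± 0.05 and 0.24 ± 0.05 at its probes in hCA-Tumor minus DMH. On the deposited series table they gave -0.43 and -0.38 without passing (adjusted p = 0.075 and 0.135). In hCA-Notumor the 2 Ide probes lay on different sides of DMH. Means in hCA-Tumor, hCA-Notumor and DMH were 0.60, 1.08 and 0.90 at A_51_P299644, and 0.36, 0.27 and 0.60 at A_52_P266530. Fgfbp3 fell by 0.65 ± 0.10 in hCA-Notumor minus DMH, and by 0.24 without passing under normexp correction. Alad and the 3 probes of Wdfy1 did not pass in any of the contrasts with DMH, and H2-Ea, H2-Ea-ps, Nnt and Mx1 had no named probe. The Y-linked genes Ddx3y, Eif2s3y and Uty were well above background on 0 of 9 arrays and Kdm5d on 3. Xist, expressed from the inactive X, was so on 7, and its signal over all 9 arrays ranged from -5.28 to -3.77. Genotype was not measured, and its part in the differences was not tested.

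In hCA-Tumor minus hCA-Notumor the 3 Zfp945 probes spanned 5.76 log2 units as measured, where 2 of 3 hCA-Tumor spots at A_52_P296074 were well above background. Napa, a SNARE disassembly protein, was among the 5 genes with the largest such change detected on 3 of 3 arrays of 1 group and 0 of 3 of the other. At probe A_51_P246816 it gave -0.87, -1.04 and -1.09 on the hCA-Tumor arrays, -6.84, -7.02 and -6.73 on the hCA-Notumor arrays and -6.49, -3.50 and -3.61 on the DMH arrays. The lowest DMH array, replicate 1, shared slide 1 with all hCA-Notumor arrays. In the main processing hCA-Tumor was at least 21.6-fold higher than hCA-Notumor, a bound that depends on the setting. The measured log2 difference was 5.86 there, but 2.16 under normexp correction and 2.97 in the fit blocked by slide. It passed in each. The other Napa probe, A_52_P336033, gave -0.13 ± 0.06 in hCA-Tumor minus hCA-Notumor and did not pass. Among the 4635 genes with several kept probes, probes called in both directions were found in 4.03% in hCA-Tumor minus DMH. The share was 3.19% in hCA-Notumor minus DMH and 15.1% in hCA-Tumor minus hCA-Notumor.

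The genes most like each of the 6 over the 9 arrays, by Pearson's r among named probes, had much smaller ranges in most cases. Gdpd3 was most like Ppp2r5e, Akap9 and Eif3c (r of 0.99 each), whose signals spanned 0.679, 1.796 and 1.196 log2 units. Trappc10 was most like Gsk3b, Baz2a and Taok3, spanning 0.77, 1.62 and 1.99. Pank3 was most like Mex3c, Cltb and Ppp3r1, and Dera most like Extl1, Mnd1 and Mt4, of which Mt4 spanned 3.37. Apol10a was most like Osr2, Ugt1a6b and Alox5 (r of 0.97, 0.97 and 0.96), and Osr2 spanned 5.69. Zfp945 probe A_52_P296074 was most like Dph6, Ifngr2 and Cnksr3 (r of 0.97 each), whereas A_52_P440481 was most like Vldlr, Inpp5f and 1700123K08Rik, and A_52_P518422 most like Bdh2, Fstl1 and Accs. Groups and slides were partly confounded, and the marker sums varied both between and within groups. Such likeness therefore mixes differences between groups with those within them, and nothing on shared regulation is read from it.

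Over the whole series, 61.1% to 73.8% of 41174 probes were well above background per array, replicate spots of 1 probe differed by a median SD of 0.05 to 0.07 log2 units, and 0 spots were saturated. Of 27207 kept probes 5441 rose and 5113 fell in hCA-Tumor minus DMH, and 5721 rose and 4413 fell in hCA-Notumor minus DMH. On the authors' series table, scaled otherwise, the split was 1203 of 3972 and 1372 of 4270 higher, or 30.3% and 32.1% in place of 51.6% and 56.5%. In hCA-Tumor minus hCA-Notumor the split was 6962 higher and 6861 lower. The median over all probes was 0.05 and 0.09 in the contrasts with DMH here and -0.09 and -0.13 on that table. Besides Napa, the largest named changes between groups detected on 3 of 3 and 0 of 3 arrays were as follows. In hCA-Tumor minus hCA-Notumor they were Gzmc, Tmem245, Ptx3 and Fcrl1. In hCA-Tumor minus DMH they were Cxcl3, Car8, Ptx3, Prg4 and Cyp2e1, and in hCA-Notumor minus DMH Prr9, Mrap, Cacna1f, Cxcl3 and Cyp2e1. Their lower bounds were 2.64-fold to 14.6-fold without normexp correction, and do not hold with it. With normexp Cxcl3 gave -0.67 in hCA-Tumor and -0.68 in hCA-Notumor against DMH, and did not pass. Ptx3 gave 0.75 in hCA-Tumor minus DMH and 0.69 in hCA-Tumor minus hCA-Notumor, and did not pass. Cacna1f gave -0.89 in hCA-Notumor minus DMH and still passed.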

How the data were processed

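The study hybridised RNA from 9 colon samples, each on 1 array of Agilent's mouse design 014868 with a single dye. Per the file headers, Feature Extraction 10.5.1.1 made the intensity values used here, which are processed green signals after background subtraction, with flags for each spot. The deposited series table holds log2 values for 23726 probes, which differ from log2 of those signals by a constant per array. It served as an alternative.

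After leaving out control and outlier spots and averaging spots of 1 probe, log2 of the deposited intensity was taken and the array's 75th percentile subtracted. The filter kept 27207 of 41174 probes, those flagged above background in every array of 1 group or more. Through the RefSeq table (GRCm38.p6, for names and gene order only) 25097 probes had 1 symbol and 16077 had none. Each probe was fitted over the 9 arrays with limma 3.58.1 in R 4.3.3 (lmFit). Its variance was then moderated toward that of all kept probes (eBayes), and p was adjusted by Benjamini-Hochberg at 0.05 per contrast. The fit was tested on simulated data. The number of arrays limits precision.

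The 6 genes, the gene lists and the tests were chosen with earlier results of these data known. Besides the 6 genes, the text names 3 neighbours on each side, the 3 probes most like each, up to 4 changed list members with the largest change per contrast, the 5 largest on-off features per contrast, and the strain and sex genes. Other kept probes of such genes are given beside them. Alternatives were normexp background correction with an offset of 50, quantile scaling, the series table, other filters, 1 probe per gene, slide and replicate blocks, other fits and arrays left out.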

Additional observations from a re-analysis of the deposited data

Results flagged for a closer look

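For 2 of the 6 genes, both high calcium groups lay apart from DMH in opposite directions on every array. Pank3 was below every DMH array in hCA-Tumor and above every DMH array in hCA-Notumor, with a hCA-Tumor minus hCA-Notumor difference of -2.56 log2 units. Dera was above every DMH array in hCA-Tumor and below every DMH array in hCA-Notumor, with a measured difference of 5.33, or 26.3-fold with the hCA-Notumor spots taken as no lower than the lowest signal well above background, since 1 of 3 was well above it. That these effects differ between the groups was not tested.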

How the results depend on the processing

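With normexp correction 20 of 32 differences of the probes of the 6 genes moved by more than the SD between replicates, and 1 reversed: the mean of both high calcium groups minus DMH of Pank3 was 0.12 with normexp correction, against -0.16. Counts of probes called are given for hCA-Tumor minus DMH, hCA-Notumor minus DMH, the mean of both minus DMH, and hCA-Tumor minus hCA-Notumor, in that order. They were 10554, 10134, 8538 and 13823, against 5473, 5064, 3874 and 8635 with normexp and 3972, 4270, 2831 and 6970 on the deposited series table. Within slide 1, 5332 were called in hCA-Notumor minus DMH. With 1 array left out the ranges were 8143 to 10952, 7176 to 12529, 5398 to 9697 and 11665 to 16399. The lowest count for the mean of both minus DMH came without DMH replicate 3. Without both hCA-Tumor replicate 3 and DMH replicate 1, a setting chosen after seeing the data, the counts were 12339, 16500, 12631 and 18277. Of 23 neighbouring probes 11, 11, 10 and 15 were called, against 4, 3, 2 and 4 on the series table (21 probes) and 6, 6, 4 and 7 with the brightest probe per gene (13 probes). Normexp gave 7 in hCA-Notumor minus DMH and 7 in hCA-Tumor minus hCA-Notumor, slide 1 alone gave 6 in the first of these, no filter gave 9 and the slide block 8 in the second. With 1 array left out they were 7 to 13 in hCA-Notumor minus DMH (7 without DMH replicate 3). In hCA-Tumor minus hCA-Notumor they were 8 to 14 (8 without hCA-Notumor replicate 1). Without both hCA-Tumor replicate 3 and DMH replicate 1 they were 17 in each of these contrasts. The causes were not tested, apart from the fewer probes of 2 settings. Of 1035 repeats for named genes, 47 lost a call and 12 gained one. Replicate numbers were not taken as pairs. After the group mean was subtracted from each probe, same-numbered arrays of different groups correlated between -0.54 and 0.22. Arrays with different numbers correlated between -0.43 and 0.55, and slides were partly shared. These values do not settle whether the samples were paired. With a replicate block 8844, 8205, 6701 and 12460 probes were called. Dim spots near background limit Dera in hCA-Notumor and Zfp945, Trappc10 and Pank3 in hCA-Tumor.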
